A study of Mus musculus with 24 samples.

Results

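Genes that mark alternatively activated macrophages were followed in the diaphragm of mice infected with newborn larvae of Trichinella spiralis, a nematode that invades skeletal muscle. The genes were chosen by name (Retnla, Arg1, Mrc1, Il4ra and Chil3), and 4 of these 5 had probes named for them, 6 probes in all of the 25697 on the array, whose named probes cover 16593 genes. Il4ra has no probe named for it in the annotation used here and was not analysed here. Each of 24 arrays (Illumina MouseRef-8 v2.0, a bead array for mouse transcripts) held RNA of the whole diaphragm of a RAG, PHIL or WT animal. RAG mice are Rag1-/- and lack mature T and B cells, PHIL mice carry a transgene that removes eosinophils by expressing diphtheria toxin A under the eosinophil peroxidase promoter, and WT mice are C57BL/6, the background of the mutant strains too. Within each strain, 3 mice were sampled 2 days and 3 mice 7 days after intravenous injection of 25000 larvae (2 dpi and 7 dpi), and 2 mice were uninfected (naive). The sources give no ages. RAG and PHIL mice were bred locally and WT mice were purchased, so each mutation and the origin of the mice cannot be told apart.

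Macrophages exposed to interleukin 4 or interleukin 13 take on a state called alternative activation, which is typical of tissue infected by worms. Both cytokines signal through a receptor that contains the Il4ra chain, and the receptor activates the transcription factor STAT6. Mrc1 encodes the mannose receptor, an endocytic lectin on the macrophage surface, and Retnla (RELM-alpha) and Chil3 (Ym1) encode secreted proteins. Arg1 encodes arginase, which splits arginine into ornithine and urea and competes with nitric oxide synthase for its substrate. Eosinophils are a source of interleukin 4, and T helper cells of both cytokines, and the comparisons ask how the genes behave without one or the other cell type.

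The promoter of Retnla is shown because it is the only one with a STAT6 motif among the 4 genes of the list with a promoter sequence (RefSeq, GRCm38.p6; 250 bases before the transcription start to 50 after it). The motif searched was TTCNNNNGAA, which reads the same on both strands. Capitals mark the match, at position -145 from the start of Retnla (chr16:48842359-48842658, plus strand).
Retnla: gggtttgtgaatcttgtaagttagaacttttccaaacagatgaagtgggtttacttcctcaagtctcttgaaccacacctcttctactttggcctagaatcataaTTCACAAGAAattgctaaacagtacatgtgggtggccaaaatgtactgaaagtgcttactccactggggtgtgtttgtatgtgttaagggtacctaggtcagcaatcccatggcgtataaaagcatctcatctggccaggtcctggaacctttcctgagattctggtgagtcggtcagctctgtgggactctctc
Of 32851 promoters of that length, 6.95% hold the motif. The promoters of Mrc1, Il4ra and Chil3 do not hold it.

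The deposited values are mean bead signals, with a p-value of detection that ranks each probe among negative control beads, and a probe counts here as detected at a detection p under 0.01. Median signal was 295.1 to 333.4 on the 8 RAG arrays and 106.3 to 131.9 on the 16 PHIL and WT arrays, so signals are set side by side only within one of these sets, and the study analysed RAG mice apart from PHIL and WT mice. Strain and experiment therefore cannot be told apart wherever RAG is set against WT. The Y-linked gene Eif2s3y was detected on 8 of 8 RAG arrays and on 6 of the 16 others (at 2 dpi in 0 of 3 PHIL and 1 of 3 WT mice, at 7 dpi in 2 of 3 of each, and in naive mice in 0 of 2 PHIL and 1 of 2 WT), so the sexes are mixed within some groups. The share also differs between RAG and WT mice, and in PHIL mice between 7 dpi and the earlier stages. Sex therefore cannot be fully told apart from strain in the former or from time in the latter. No gene of the eosinophil list was detected on any WT array, Epx, Prg2, Siglecf, Ccr3 and Il5ra among them, so the loss of eosinophils in PHIL diaphragms could not be checked. The T cell gene Cd3g was detected in 3 of 3 PHIL and 3 of 3 WT mice at 7 dpi and on no RAG array. Muscle genes such as Ckm and Acta1 were detected on every array.

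Mrc1 rose at each step of infection in each strain, and it was the one gene of the list to do so. Its bead signal in RAG mice was 1863.2 and 2030.9 when naive, 3298.2, 2535.1 and 2849.5 at 2 dpi, and 6428.6, 6161.6 and 4777.8 at 7 dpi. In PHIL mice it was 552 and 561.4, then 1076.1, 1051.5 and 1124.8, then 2340.9, 1999 and 2326 at the same stages. In WT mice the signals were 407.5 and 458.7, then 1422, 1072 and 871.2, then 2091.9, 2556.6 and 1868.6. In none of the strains did the arrays of one stage overlap those of another, and all 24 arrays detected the gene.

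Changes were fitted with limma on background-corrected, normalised log2 signals, and a gene was called where its Benjamini-Hochberg adjusted p was at most 0.05 and its log2 change at least 0.59 in size (1.5-fold). At 7 dpi against naive, Mrc1 was 3.09-fold higher in RAG mice (log2 change 1.63 ± 0.22 SE, limma adjusted p = 0.00144), 2.67-fold in PHIL mice (1.42 ± 0.14, adjusted p = 3.87e-06) and 3.56-fold in WT mice (1.83 ± 0.14, adjusted p = 3.19e-07). The 2 dpi level was already above naive, by 0.76 ± 0.22 in RAG (adjusted p = 0.0333), 0.73 ± 0.14 in PHIL (adjusted p = 0.00142) and 0.95 ± 0.14 in WT (adjusted p = 0.000141) on the log2 scale. The step from 2 to 7 dpi was of like size, 0.87, 0.69 and 0.88 on the log2 scale in RAG, PHIL and WT (limma adjusted p = 0.0132, 0.000607 and 9.59e-05). The RAG call at 2 dpi is the weakest of these: it was lost when either naive array, or the first or the second array of 2 dpi, was left out (adjusted p between 0.046 and 0.136, with the change under the fold limit where the first was left out).

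Retnla was bright on all 24 arrays, in naive mice too, and it was called in no comparison. Its signal in RAG mice was 3053.4 and 3398.9 when naive, 3395.8, 4226.4 and 3030.4 at 2 dpi, and 5691.3, 8941.7 and 3863.5 at 7 dpi. The 3 RAG arrays of 7 dpi lay above both naive arrays and spread over more than a doubling among themselves. In PHIL mice the signal was 603.4 and 546.2, then 491.9, 588.7 and 824.6, then 1059.7, 1152.3 and 768.4. In WT mice it was 476.2 and 471.7, then 816.1, 819.2 and 821.6, then 884.7, 2136.2 and 890.9. One WT array of 7 dpi, the second, was far above the other two, and the WT arrays of 2 dpi were all above the naive pair. The 3 PHIL arrays of 7 dpi also lay above both naive PHIL arrays.

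After background correction and normalisation, which gives the arrays a common distribution of signals, Retnla at 7 dpi against naive differed by 0.85 on the log2 scale in RAG mice (95% interval 0.02 to 1.68, limma adjusted p = 0.117), by 0.06 in PHIL mice (-0.65 to 0.78, adjusted p = 0.892) and by 0.72 in WT mice (0.01 to 1.43, adjusted p = 0.0897). At 2 dpi the differences from naive were 0.28, -0.22 and 0.35, with adjusted p of 0.611, 0.651 and 0.417 in RAG, PHIL and WT. The WT value at 7 dpi depended on the processing. It was called at 1.15 (adjusted p = 0.00608) when arrays were scaled to a common median, a scaling that put the median of all genes at 0.38 instead of -0.06, and at 0.90 (adjusted p = 0.0189) with the level of Eif2s3y as a covariate. The WT value was also called without background correction and in the authors' normalised values. Without the second WT array of 7 dpi, on which Eif2s3y was not detected, it was at its lowest, 0.31. In RAG mice the 7 dpi value was called at 1.12 (adjusted p = 0.00867) with the replicate number as a block and at 0.80 (adjusted p = 0.0465) in the authors' normalised values. The PHIL value at 7 dpi ran from -0.12 to 0.56 over the other ways of processing and the left-out arrays.

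Arg1 was not detected in naive diaphragms and appeared in part of the infected ones. It was detected in 0 of 2 naive mice of each strain, at 2 dpi in 2 of 3 mice of each strain, and at 7 dpi in 1 of 3 RAG, 3 of 3 PHIL and 1 of 3 WT mice. Its signals in PHIL mice were 107.1 and 103.3 when naive, 132.6, 204.1 and 148.6 at 2 dpi, and 153.4, 172.3 and 276.8 at 7 dpi. In WT mice they were 91 and 94.1, then 114.6, 144.6 and 162.5, then 144.5, 233.9 and 138.6. In RAG mice, over a higher background, they were 268.5 and 241.5, then 338.9, 254.9 and 434.7, then 336.9, 406.5 and 311.3. Every infected PHIL and WT array exceeded both naive arrays of its strain, and in RAG mice 1 array of 2 dpi did not.

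Arg1 was called higher in PHIL mice at 2 dpi, with normalised log2 signals of 6.28 ± 0.69 against 4.84 ± 0.06 in naive mice (SD, n = 3 and 2, limma adjusted p = 0.038), and at 7 dpi (6.32 ± 0.78, adjusted p = 0.0252), and in WT mice at 7 dpi (5.90 ± 0.69 against 4.57 ± 0.03 in naive mice, adjusted p = 0.0391). Since naive mice had no detected value, a fold is a lower bound, set by the dimmest detected probe of each naive array: at least 1.1-fold at 7 dpi in PHIL mice. No bound is given for PHIL mice at 2 dpi, where Arg1 was detected in 2 of 3. In WT mice at 7 dpi no bound above 1 could be given. WT mice at 2 dpi missed the threshold (5.84 ± 0.64, adjusted p = 0.0533), as did RAG mice at 2 dpi (6.46 ± 1.14 against 5.06 ± 0.11 in naive mice, adjusted p = 0.116) and at 7 dpi (6.33 ± 0.59, adjusted p = 0.147). The calls in PHIL mice at 2 and 7 dpi and in WT mice at 7 dpi were each lost when either naive array of the strain was left out. The PHIL call at 2 dpi was also lost without the second or the third array of 2 dpi (limma adjusted p = 0.132 and 0.053). The PHIL call at 7 dpi was lost without the third array of 7 dpi (0.102), and the WT call without the second array of 7 dpi (0.159). Conversely, Arg1 in RAG mice at 2 dpi was called when the second array, the one on which it was not detected, was left out (adjusted p = 0.00735), and Arg1 in WT mice at 2 dpi when the first was (0.0223).

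Chil3 was higher at 2 dpi in PHIL and WT mice and gave no detected signal in any RAG mouse. Its best probe read 130.4, 209.3 and 142.9 in PHIL mice at 2 dpi and 103.5, 132.2 and 162 at 7 dpi, against 79.9 and 86.4 in naive PHIL mice. In WT mice it read 173.3, 257.7 and 188.3 at 2 dpi and 113.2, 187.8 and 90.5 at 7 dpi, against 85.8 and 106.3 in naive WT mice. In RAG mice it stayed between 240.4 and 291.3 at all stages, not detected on any of the 8 arrays. It was detected in 3 of 3 WT and 1 of 3 PHIL mice at 2 dpi, in 1 of 3 WT and 0 of 3 PHIL mice at 7 dpi, and in no naive mouse.

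At 2 dpi Chil3 averaged 6.23 ± 0.78 against 4.43 ± 0.05 in naive mice in the PHIL strain (normalised log2 signal, SD, n = 3 and 2, limma adjusted p = 0.0161). It was detected in 1 of 3 PHIL mice there, so no fold is given. In the WT strain it averaged 6.88 ± 0.58 against 4.67 ± 0.24 (limma adjusted p = 0.00385, a rise of at least 1.5-fold). At 7 dpi it averaged 5.22 ± 0.60 in PHIL mice (adjusted p = 0.223 against naive) and 5.11 ± 0.90 in WT mice (adjusted p = 0.499), neither of them called. From 2 to 7 dpi it fell in WT mice (log2 change -1.78 ± 0.46, limma adjusted p = 0.00781), where it was detected on 1 of 3 arrays at 7 dpi and 3 of 3 at 2 dpi, so the size rests in part on values below detection. In PHIL mice the level at 7 dpi was under that at 2 dpi without a call (limma adjusted p = 0.0925), and no fold is given. In WT mice both of these calls were kept when any single array was left out, while the PHIL call at 2 dpi was lost without either naive array (adjusted p = 0.08 and 0.0672) or without the second array of 2 dpi (0.0598). The remaining 2 probes of Chil3 were seldom above background, one on no array and the other on 1 WT array of 2 dpi, and no value is given for them. Chil3 has a close paralogue, Chil4, and whether the probes tell the 2 transcripts apart was not tested.

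**Figure D1:**
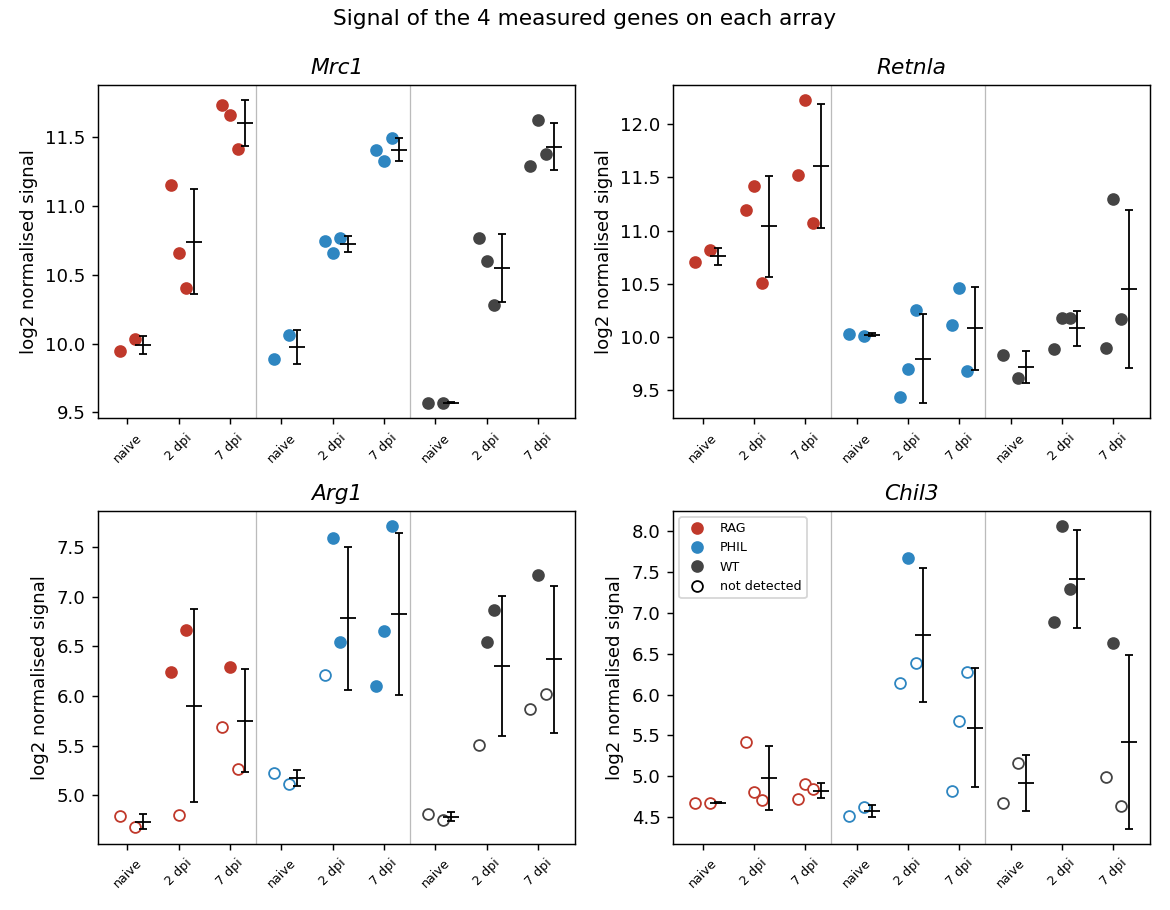
Log2 signal (vertical axes, all 24 arrays normalised together) of Mrc1, Retnla, Arg1 and the best probe of Chil3 in RAG, PHIL and WT mice, naive and at 2 and 7 dpi; each point is an array, open where the probe was not detected, and bars give the mean and SD of the 2 or 3 arrays. Mrc1 climbs in every strain, Arg1 is open in all naive mice, and Chil3 is open on all 8 RAG arrays.

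The count of genes of the list called higher can be read against the share of all tested genes that were. Of 3 tested in RAG mice, 1 was called higher at 2 dpi, where 6.8% of all genes were, and 1 at 7 dpi, where 17.6% were. Of 4 tested in PHIL mice, 3 were higher at 2 dpi (10.6% of all genes) and 2 at 7 dpi (14.9%). Of 4 in WT mice, 2 were higher at 2 dpi (13.1%) and 2 at 7 dpi (16.3%). From 2 to 7 dpi, Mrc1 was the 1 gene higher in each strain, beside 13.9%, 10.7% and 10.6% of all genes in RAG, PHIL and WT, and Chil3 in WT mice the 1 gene lower, beside 8.05%. None was called lower in any comparison with naive. The genes passed a filter of detection on at least 2 arrays, and Arg1 and Chil3 passed it through infected arrays alone.

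**Figure D2:**
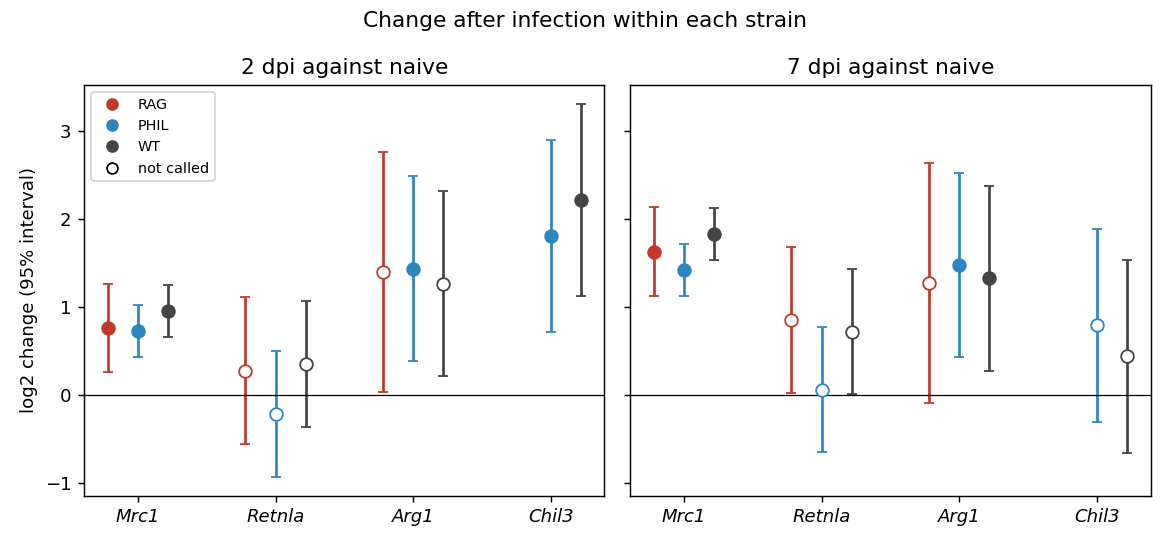
Log2 change from naive (vertical axis, limma estimate with 95% interval) at 2 dpi (left) and 7 dpi (right) for each gene in RAG, PHIL and WT mice, filled where called; estimates for Arg1 and Chil3 start from naive levels that were not detected and are not folds. Mrc1 is filled throughout, Retnla is never filled, and no RAG value is drawn for Chil3 because it was not detected there.

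Whether eosinophils mattered was asked by setting PHIL against WT mice. None of the 4 genes was called at any stage. At 7 dpi Mrc1 was 10.79 ± 0.08 in PHIL mice and 10.81 ± 0.17 in WT mice (normalised log2 signal, SD, n = 3 each), a difference of -0.02 with a 95% interval from -0.28 to 0.24 (limma adjusted p = 0.96). That interval lies within the 1.5-fold limit on both sides. In naive mice the PHIL minus WT difference of Mrc1 was 0.39 (0.07 to 0.71), the only one of the 4 with an unadjusted p under 0.05 in any of the 3 comparisons, and its adjusted p was 0.484. For Retnla the PHIL minus WT difference was 0.29 in naive mice, -0.28 at 2 dpi and -0.37 at 7 dpi (-1.004 to 0.27), with adjusted p between 0.627 and 0.931. Chil3, detected in 1 of 3 PHIL and 3 of 3 WT mice at 2 dpi, differed by -0.65 there (-1.63 to 0.33, adjusted p = 0.697). Arg1, detected in 3 of 3 PHIL and 1 of 3 WT mice at 7 dpi, differed by 0.43 (-0.51 to 1.36, adjusted p = 0.715). Both sizes rest in part on values below detection, and both intervals are wide enough to hold a change of 2-fold or more in one direction. Over all 8226 genes, limma called 0% in naive mice, 0% at 2 dpi and 0.486% at 7 dpi, with 677, 781 and 1218 genes at an unadjusted p under 0.05.

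The change after infection was also compared between the 2 strains. The response of Mrc1 at 7 dpi in PHIL minus that in WT mice was -0.41 on the log2 scale (interval -0.83 to 0.00, limma adjusted p = 0.519), and at 2 dpi the difference was -0.22 (-0.64 to 0.19, adjusted p = 0.861). Retnla's response differed by -0.66 at 7 dpi (-1.67 to 0.35, adjusted p = 0.701) and by -0.57 at 2 dpi (-1.58 to 0.44, adjusted p = 0.85). For Arg1 and Chil3 the responses start from naive levels that were not detected, so no size is given, and adjusted p lay between 0.922 and 0.972. None of the 4 genes had an unadjusted p under 0.05 in these comparisons, and over all genes limma called 0.0122% at 2 dpi and 0% at 7 dpi, where 573 and 795 genes had one. The detection counts run in both directions: at 2 dpi Chil3 was detected in fewer PHIL than WT mice (1 against 3), and at 7 dpi Arg1 in more (3 against 1).

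RAG and WT mice were set side by side after all 24 arrays were normalised together, and Retnla averaged 10.76 ± 0.08 against 9.72 ± 0.15 in naive mice, 11.04 ± 0.47 against 10.08 ± 0.17 at 2 dpi and 11.61 ± 0.58 against 10.46 ± 0.74 at 7 dpi (log2 signal, SD, n = 2 or 3). The RAG arrays lay above the WT arrays in naive mice and at 2 dpi and overlapped them at 7 dpi. The naive difference was 1.04 (0.19 to 1.89), with a limma adjusted p of 0.0828 where 16.1% of all genes were called. This comparison turns on the scaling. With the sets normalised separately the naive difference of Retnla was 2.39 and that of Mrc1 1.76, but the median of all genes then lay at 1.27. With median scaling they were 1.79 and 1.14 around an all-gene median of 0.54. In each of the 3 scalings the naive difference of Retnla lay above the median of all genes. In the main scaling Mrc1 differed by 0.42 (0.02 to 0.82, adjusted p = 0.14) in naive mice. Retnla and Mrc1 were the 2 with an unadjusted p under 0.05.

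The responses of RAG and WT mice to infection were compared on the same scale. Mrc1's response in RAG differed from that in WT by -0.23 at 2 dpi (-0.75 to 0.29, limma adjusted p = 0.622) and by -0.25 at 7 dpi (-0.77 to 0.27, adjusted p = 0.666), and Retnla's by -0.08 (-1.18 to 1.02, adjusted p = 0.952) and 0.11 (-0.99 to 1.21, adjusted p = 0.944). Arg1's responses had adjusted p of 0.833 and 0.763. The Chil3 response at 2 dpi came closest to a call, with an adjusted p of 0.0784 where 5.14% of all genes were called, and it was called with Eif2s3y as a covariate (0.0349) and with a larger offset in the background correction (0.0498). No size is given, since Chil3 was not detected in RAG mice or in naive WT mice. It was the only one of the 4 with an unadjusted p under 0.05 at 2 dpi. At 7 dpi none of the 4 had one and 1.76% of all genes were called, with 1564 of 8987 at an unadjusted p under 0.05.

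The order of the 9 groups differed from gene to gene on this joint scale. For Mrc1 it followed time: the 3 groups of 7 dpi (11.60 in RAG, 11.41 in PHIL and 11.43 in WT) stood apart from the 3 of 2 dpi (10.74, 10.72 and 10.55), and these from the naive ones (9.99, 9.97 and 9.57). Neighbours of the same stage overlapped, except that naive WT lay below naive PHIL. The place of the RAG groups in this order also rests on the joint scaling. With the sets normalised separately, Mrc1 in RAG at 2 dpi (11.50) lay above PHIL and WT at 7 dpi (10.79 and 10.81). For Retnla the 3 RAG groups came on top, from 11.61 to 10.76, a place that rests on how RAG arrays are scaled against the others. PHIL and WT groups then alternated in part: WT at 7 dpi (10.46), PHIL at 7 dpi (10.09), WT at 2 dpi (10.08), PHIL naive (10.02), PHIL at 2 dpi (9.80) and WT naive (9.72), and every group overlapped its neighbour. For Arg1 the infected groups ran from 6.82 in PHIL at 7 dpi down to 5.75 in RAG at 7 dpi, each overlapping the next, and all of these means exceeded the naive ones (5.17 in PHIL, 4.78 in WT and 4.74 in RAG), although 1 RAG array of 2 dpi lay at 4.81. For Chil3, WT at 2 dpi (7.42) and PHIL at 2 dpi (6.73) led, and they overlapped each other. PHIL at 2 dpi also overlapped PHIL and WT at 7 dpi. The other Chil3 groups lay between 5.59 and 4.57.

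Genes whose pattern over the 24 arrays was most like that of each gene were found by Pearson correlation, as a description, since all arrays share the strain, time and experiment differences. Mrc1 was closest to Cotl1 (r = 0.98), which encodes an actin-binding protein, Cd74 (0.96), the invariant chain of MHC class II, and Il13ra1 (0.96), which encodes the partner of Il4ra in the receptor for interleukin 4 and 13. These held within the 16 PHIL and WT arrays (r = 0.98, 0.97 and 0.97) and within the 8 RAG arrays (0.98, 0.95 and 0.96). Chil3 was closest to Ifit2 (0.91), Cmpk2 (0.89) and Ifit3 (0.88), all genes induced by interferon. Chil3 was detected on 5 of the 24 arrays and on none of the 8 RAG arrays, so most of its values behind these r are background signal. Ifit2 rose at 2 dpi by 2.47 on the log2 scale in PHIL mice and 2.22 in WT mice. With the same probe in both strains, its response in RAG differed from that in WT by -1.48 ± 0.28 (SE, limma adjusted p = 0.00676).

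Arg1 was closest to Naip5 (r = 0.87), a sensor of bacterial flagellin, Dnaaf3 (0.84), a dynein assembly factor, and Cd40 (0.83), a co-stimulatory receptor of antigen-presenting cells that is on the list for classical activation. These stayed at 0.84 to 0.89 within PHIL and WT and at 0.72 to 0.79 within RAG. Arg1 was detected on 11 of the 24 arrays, so its r values rest in part on background signal. Retnla was closest to Anxa1 (0.86), which encodes annexin A1, Meox1 (0.85), a homeobox factor, and Yipf5 (0.85), a Golgi protein. Within the 16 PHIL and WT arrays these r were 0.54, 0.73 and 0.21, and within the 8 RAG arrays 0.77, 0.47 and 0.84. Anxa1 and Yipf5 were each detected on fewer than 2 of the 16 PHIL and WT arrays and were not tested there. Among the 4 genes themselves, r between pairs over all arrays ran from -0.29 (Retnla and Chil3) to 0.66 (Arg1 and Chil3). Retnla and Mrc1 were at 0.42 within PHIL and WT and at 0.76 within RAG, and Arg1 and Mrc1 at 0.67 and 0.47. Retnla and Chil3 were at 0.12 within PHIL and WT.

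**Figure D3:**
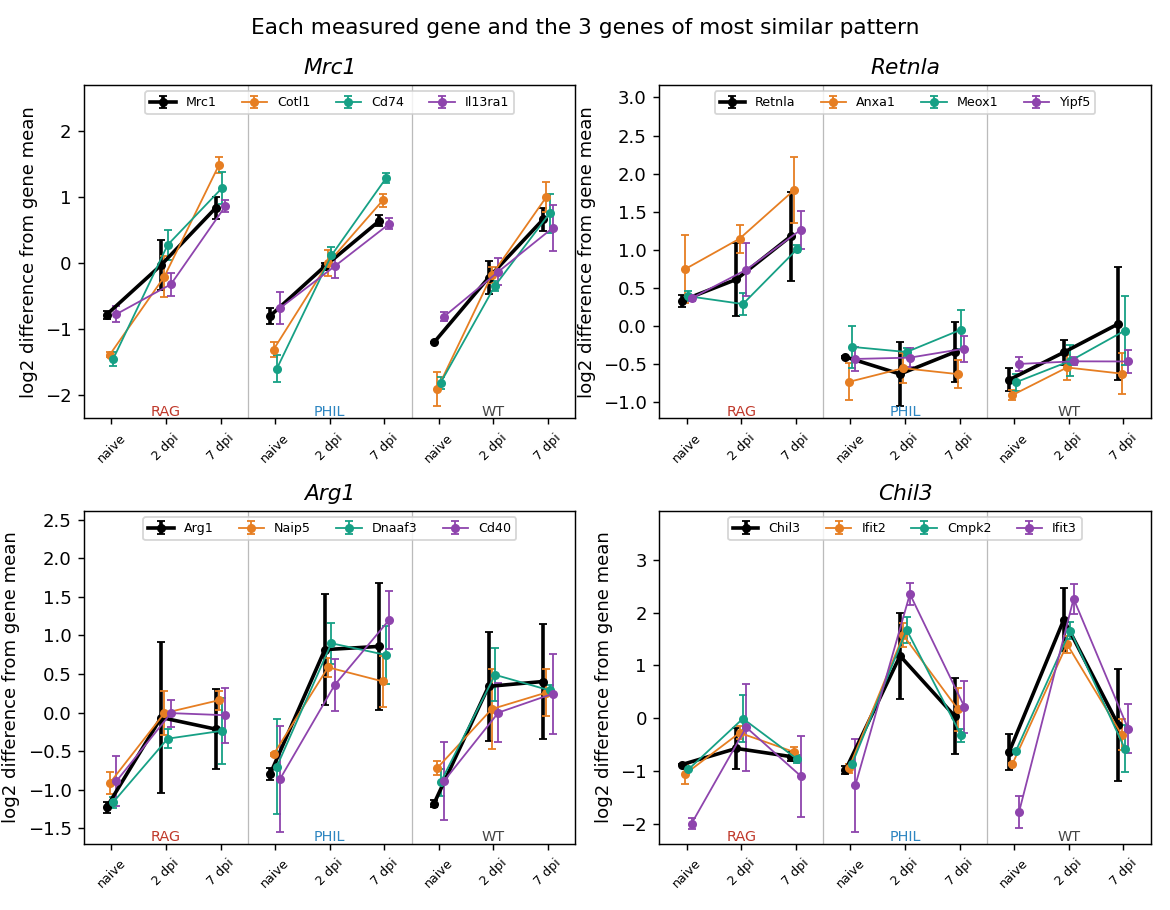
Mean log2 signal of each gene, as the difference from its own mean over 24 arrays (vertical axes, bars are SD of 2 or 3 arrays), beside the 3 genes most correlated with it, in RAG, PHIL and WT mice at each stage. Mrc1 and its 3 likest genes climb through 7 dpi, whereas Chil3, Ifit2, Cmpk2 and Ifit3 peak at 2 dpi in PHIL and WT mice. In RAG mice Chil3 was not detected and its values are background.

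In the pathway upstream of these genes, Il13ra1 rose at 7 dpi in RAG, PHIL and WT mice by 1.67 ± 0.15, 1.24 ± 0.18 and 1.32 ± 0.18 on the log2 scale (SE, limma adjusted p of at most 0.0002). Of the list of interleukin 4 and 13 signalling genes, 4 of 12 tested were called higher and 1 lower in RAG mice at 7 dpi, and 3 of 11 higher and 0 lower in both PHIL and WT mice. Those higher in all 3 strains were Il13ra1, Socs3, a feedback inhibitor of cytokine signalling, and Ptpn6, a phosphatase of blood cells. Of all genes, 17.6%, 14.9% and 16.3% were called higher at 7 dpi in RAG, PHIL and WT, and those called lower are counted in the closing section. The median change over the list at 7 dpi was 0.14, 0.27 and 0.29 in RAG, PHIL and WT, against -0.09, -0.07 and -0.06 over all genes. Cish, which inhibits signalling through STAT5, was higher by 1.89 in RAG mice at 7 dpi and not called in PHIL (-0.22) or WT (-1.19), and its response in RAG exceeded that of WT by 3.08 ± 0.65 (adjusted p = 0.0257). Il33, an alarmin upstream of interleukin 13, had a smaller 2 dpi response in RAG than in WT, by -1.20 ± 0.32 (adjusted p = 0.0381). The cytokine gene Il4 was detected on 0 of 24 arrays, Il5 on 1 and Il13 on 12.

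Other genes of alternative activation moved less uniformly than Mrc1. At 7 dpi 5 of 17 were higher and 3 lower in RAG mice, 8 of 19 higher and 3 lower in PHIL mice, and 7 of 19 higher and 3 lower in WT mice. Median changes were 0.60, 0.44 and 0.59 in these strains. Beside this list, 17.6%, 14.9% and 16.3% of all genes were called higher, and those called lower are counted in the closing section. Those of largest change in the list were Ch25h, an oxysterol-making enzyme (2.41 in RAG, 2.12 in PHIL and 1.75 in WT), the fungal glucan receptor Clec7a (called at 1.94 in PHIL and 1.60 in WT; 0.86 and not called in RAG, where another probe was used), the lectin Clec4n (1.71, 0.94 and 1.07) and the transcription factor Egr2 (1.53, 1.58 and 1.53). These were detected on 18, 16, 17 and 20 of the 24 arrays, so their sizes may rest in part on values below detection. The 3 lower ones were Kdm6b and Ppargc1b in each strain, with Flt1 in RAG, read there by another probe than in PHIL and WT, and Cdh1 in PHIL and WT, chosen after their values were seen. Chil1, the one other chitinase-like or resistin-like gene tested, rose in all 3 strains at 2 and 7 dpi. No gene of that family was detected on a naive PHIL or WT array, so no size is given for those strains. In RAG mice, with 0 to 1 gene of the family detected per naive array, the rise of Chil1 was 2.48 at 2 dpi and 2.07 at 7 dpi. Of the genes around arginase, Ass1, which rebuilds arginine, rose at 7 dpi by 1.97, 2.18 and 2.53, and Odc1, which turns ornithine into polyamine, rose at 2 dpi by 0.73, 1.13 and 1.56, less in RAG than in WT (difference -0.88 ± 0.16, adjusted p = 0.0061).

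Genes of classical activation and general macrophage markers changed in the same arrays as Mrc1. Of the classical list, 12 of 13 were higher in RAG, 14 of 14 in PHIL and 12 of 14 in WT at 2 dpi, with medians of 1.67, 2.30 and 2.51, and the counts were the same at 7 dpi with medians of 1.69, 1.76 and 1.38. Of all genes, 6.8%, 10.6% and 13.1% were called higher at 2 dpi and 17.6%, 14.9% and 16.3% at 7 dpi. The interferon-induced chemokines Cxcl9 and Cxcl10 had the largest changes in PHIL and WT, and stood at 3.50 and 2.62 in RAG, 4.98 and 4.63 in PHIL, and 3.59 and 3.79 in WT at 7 dpi. Cxcl10 was detected on 19 of the 24 arrays, so its sizes may rest in part on values below detection. Of the macrophage markers, 14 of 15 were higher in RAG, 12 of 14 in PHIL and 13 of 14 in WT at 7 dpi, with medians of 2.16, 1.66 and 1.795 beside Mrc1 changes of 1.63, 1.42 and 1.83. The mean level of the macrophage markers was 9.73 to 10.09 in RAG mice at 7 dpi and 7.80 to 7.82 in naive RAG mice, 9.02 to 9.25 and 7.49 to 7.62 in PHIL, and 8.84 to 9.27 and 7.07 to 7.43 in WT. In whole tissue more macrophages and more Mrc1 RNA per macrophage cannot be told apart. Fcgr1 is in the classical list and the marker list both. A difference in response between strains was called for Fcgr1, Tyrobp and Ctss of the marker list, with values not given here.

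**Figure D4:**
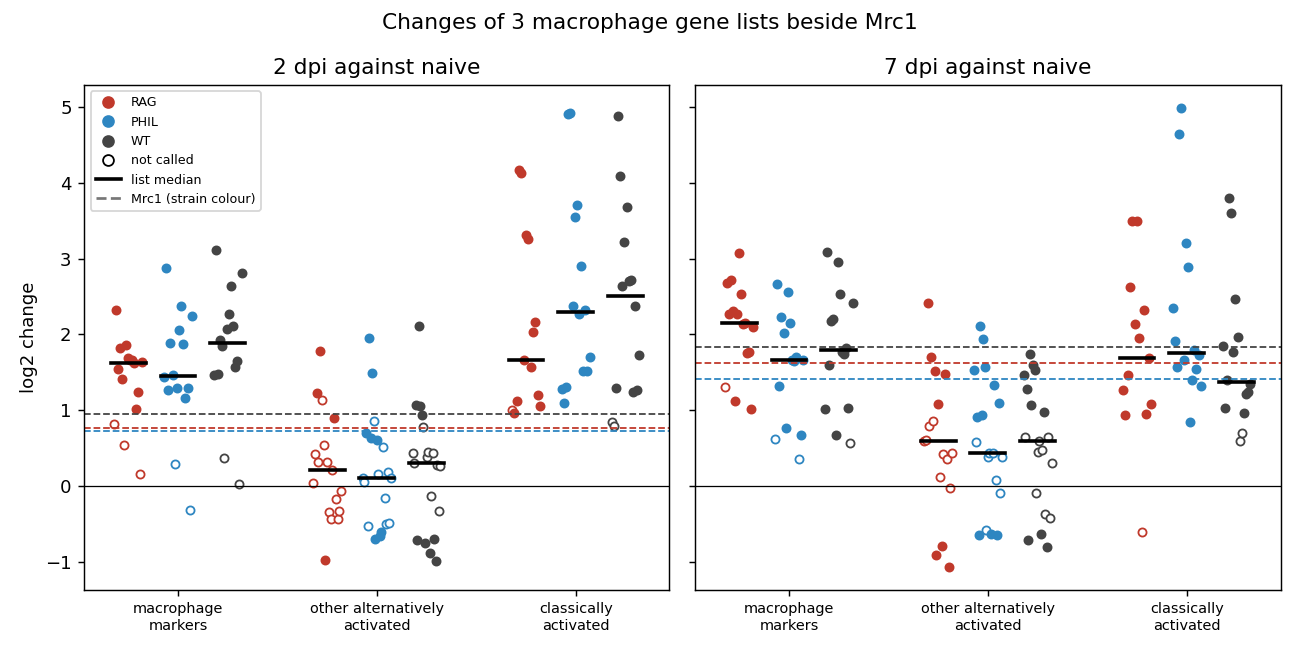
Log2 change from naive (vertical axis) at 2 dpi (left) and 7 dpi (right) of each tested gene of 3 lists in RAG, PHIL and WT mice, filled where called, with the list median as a black bar and Mrc1 as a dashed line in the strain's colour. At 7 dpi the Mrc1 lines of RAG (1.63) and PHIL (1.42) run below the medians of their macrophage markers (2.16 and 1.66), and all 3 lines run above the medians of the other alternatively activated genes.

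Markers of further cell types were checked beside the genes. Those of resident macrophages were higher in 5 of 11 in RAG, 3 of 12 in PHIL and 4 of 12 in WT at 7 dpi, led by the chemokine Ccl8 (4.77, 4.32 and 3.94). Ccl8 was detected on 18 of the 24 arrays, so its sizes may rest in part on values below detection. Of all genes, 17.6%, 14.9% and 16.3% were called higher at 7 dpi in RAG, PHIL and WT, and those called lower are counted in the closing section. Retnla is also made outside macrophages, for example in fat. The mean log2 level of adipocyte markers was 8.28 to 9.23 in RAG mice at 7 dpi and 8.92 to 9.08 in naive RAG mice, 8.20 to 8.80 and 8.25 to 8.25 in PHIL mice, and 8.10 to 8.51 and 8.49 to 8.78 in WT mice. Of these markers 0 were called higher in any strain at 7 dpi and 1 of 6 was lower in WT. Mesothelial markers could come from the lining of the diaphragm. At 2 dpi 0 of 8 were called higher in RAG, 5 of 8 in PHIL and 6 of 8 in WT. The shares of all genes there were 6.8%, 10.6% and 13.1%. From 2 to 7 dpi 8 of 8 mesothelial markers were lower in WT, beside 8.05% of all genes. On the joint scale their mean level in RAG mice was 7.98 to 8.13 when naive and 7.67 to 8.41 at 2 dpi. In WT mice it was 6.59 to 7.09 and 8.09 to 8.40. The levels of RAG mice against WT mice rest on the joint scaling. T and B cell markers had a mean level of 5.18 to 5.35 on infected RAG arrays, 7.39 to 7.77 in PHIL at 7 dpi and 6.59 to 7.02 in WT at 7 dpi. Of neutrophil markers, 2 of 3 tested were higher in RAG, 1 of 3 in PHIL and 1 of 3 in WT at 2 dpi, beside 6.8%, 10.6% and 13.1% of all genes. The part of these cell types in the results on Retnla, Arg1 and Chil3 was not tested.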

How the data were processed

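The authors deposited mean bead signals (intensity, neither normalised nor background-subtracted, from GenomeStudio 1.8), and a table of normalised intensity, for which their methods name lumi. The detection p-value deposited beside each signal was computed in GenomeStudio from negative control beads. Here neqc took the background from these p-values and normalised by quantiles (offset 16, limma 3.58.1, R 4.3.3) for the 8 RAG arrays, the 16 PHIL and WT arrays and all 24 together. Genes needed a probe detected on 2 arrays, and the probe of largest interquartile range stood for a gene. Groups were fitted with limma (residual df 5, 10 and 15); p-values were adjusted over the 3 RAG comparisons together and otherwise within each comparison, over all 8660, 8226 and 8987 genes. A group left with 1 array was taken to vary like the rest. The number of arrays limits the precision. Replicates are separate diaphragms per the study's methods, and same-numbered arrays did not deviate together. The members and gene lists were chosen with earlier results of these data known. Most genes named beyond the members come from the 3 genes most correlated with each and from a choice in each list. That choice holds up to 4 genes of largest change called at 7 dpi and those called for a difference in response. Not all genes of that choice are named or given with values. Of 16 lists (246 genes), those on mast cells, muscle and fibroblasts and on mannose receptors are described in the closing section. The procedure was tested on simulated data. Alternatives were other background corrections, scalings, filters, probes, thresholds and fits, and leaving out each array; the Eif2s3y covariate was chosen after seeing the data.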

Additional observations from a re-analysis of the deposited data

How the results depend on the processing

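The counts of genes called among Mrc1, Retnla, Arg1 and Chil3 moved as follows. In RAG at 2 dpi against naive the count of 1 was 0 without a detection filter, with only the groups compared, with each comparison adjusted alone and at a 2-fold threshold. In RAG at 7 dpi against naive it was 2 instead of 1 in the authors' normalised values, with the replicate number as a block and with only the groups compared. From 2 to 7 dpi the count in RAG was 0 at 2-fold, with adjusted or unadjusted P, and in PHIL 0 at 2-fold and 2 with the replicate block. In PHIL at 2 dpi the count of 3 was 2 with median scaling, without and with a stricter detection filter, and at 2-fold with adjusted or unadjusted P. In WT the count of 2 at 2 dpi was 1 at 2-fold, and 3 with all arrays normalised together, with only the groups compared and with the Eif2s3y covariate, which gained Arg1. Arg1 was also gained there with a stricter detection filter and at 2-fold with unadjusted P, where another gene was lost or untested. The WT count of 2 at 7 dpi was 3 without background correction, with median scaling, in the authors' normalised values and with the covariate, which gained Retnla, and 1 with an offset of 50, without a detection filter and with a trended and robust fit, and from 2 to 7 dpi 1 with a stricter detection filter, which left Chil3 untested, and at 2-fold with adjusted or unadjusted P. RAG against WT naive gave 2 instead of 0 with median scaling and with the sets normalised separately, and 1 with only the groups compared, the Eif2s3y covariate and 2-fold with unadjusted P. The RAG and WT responses at 2 dpi gave 1 instead of 0 with an offset of 50, the covariate and 2-fold with unadjusted P. Leaving out 1 array gave 0 to 1 in RAG at 2 dpi, 2 to 3 in WT at 2 dpi, 1 to 3 in PHIL at 2 dpi, 1 to 2 in PHIL at 7 dpi and 1 to 3 in WT at 7 dpi.

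No call of these genes changed direction. Of 890 gene and setting pairs, 845 kept their side of the threshold, 20 calls were lost and 25 gained; of 416 with an array left out, 396 did, 17 were lost and 3 gained. Over all genes, WT at 7 dpi against naive gave 2310 calls, 1149 without background correction, 1159 in the authors' normalised values and 844 at 2-fold, and RAG against WT naive ran from 519 in the authors' normalised values to 8063 with the sets normalised separately, against 1443. PHIL against WT at 7 dpi gave 40 genes, 104 with a trended and robust fit, 0 with only the groups compared and 0 to 87 with 1 array left out. The replicate block changed 1 call each of Retnla in RAG and Chil3 in PHIL (adjusted p = 0.0357, from 2 to 7 dpi) and no other call of these genes. Same-numbered arrays correlated between -0.18 and 0.22 in their deviations from group means. Low signal limits Arg1 and Chil3: values below detection carry no fold.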

Other observations

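Cell types and genes not described above moved as follows. Of mature muscle markers, 5 of 13 in RAG, 3 of 13 in PHIL and 3 of 13 in WT were called lower at 7 dpi, beside 1294 of 8660 genes in all in RAG, 956 of 8226 in PHIL and 969 of 8226 in WT. They include the heavy chain Myh7 and the calcium channel Ryr1, which fell by 1.60 and 1.44 in RAG, 0.95 and 1.45 in PHIL and 1.00 and 1.12 in WT on the log2 scale. Of the fibroblast and progenitor markers, 3 of 11 were higher and 3 lower in RAG, 1 and 3 in PHIL, and 3 and 0 in WT at 7 dpi, with the collagen Col1a1 higher by 1.28, 1.11 and 1.47. Of mast cell and basophil markers, 1 of 6 was higher and 1 lower in RAG, 1 of 7 higher and 4 lower in PHIL, and 0 of 7 higher and 1 lower in WT at 7 dpi. Of all genes, 17.6%, 14.9% and 16.3% were called higher at 7 dpi in RAG, PHIL and WT. Mrc2, the one other mannose receptor gene tested, was lower by -0.61 in WT at 7 dpi and not called in PHIL (-0.41), and it was not tested within RAG.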
